A study of Mus musculus with 16 samples.

Results

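Chemokines and their receptors were taken as the protein-coding genes of the mouse liver table whose names are a chemokine or chemokine receptor prefix (Ccl, Cxcl, Ccr, Cxcr, Cx3cl, Cx3cr, Xcl, Xcr or Ackr) followed by a number. This rule on names found 47 of 23258 gene rows, of which 15467 are protein-coding, and the members comprised 26 ligands and 21 receptors. Of these, 36 passed the filter on low counts and were tested, and 11 (6 ligands and 5 receptors) did not. Chemokines are small secreted or membrane-bound proteins that direct the movement of white blood cells, and they act through G protein-coupled receptors on those cells. A further set of atypical receptors binds chemokines without G protein signalling and removes them or moves them across a cell layer. In the liver, Kupffer cells, endothelial cells, stellate cells and hepatocytes make chemokines, and the ligands of CCR2 are known for calling blood monocytes into the organ.

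RNA was sequenced from livers of C57BL/6 mice, either wild type (WT) or with a liver-specific knockout of miR-33 (KO), on a chow diet or a high-fat diet (HFD). The groups were KO on HFD (n = 5), WT on HFD (n = 4), KO on chow (n = 4) and WT on chow (n = 3). The name of the deposited table carries Alb-Cre, a driver active in hepatocytes, so that immune cells of the KO livers are not known to have lost miR-33. The labels do not say that libraries came from separate animals, and they give no age, sex or batch, so p-values measure the spread between these libraries only. Libraries are numbered within a group in accession order, and values are listed in that order.

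The microRNA that was deleted is shown first, since every genotype comparison below concerns it. It lies in an intron of Srebf2 and is known for lowering cholesterol export from cells. Its mature form spans chr15:82198127-82198147 (+ strand, RefSeq, GRCm38.p6), and the capitals mark its seed, bases 2 to 8.
mmu-miR-33-5p: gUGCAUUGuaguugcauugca
The seed match CAATGCA occurred in the longest annotated 3' UTR of 6 of the 47 members, which were Ccl28, Cxcl9, Cxcl12, Ccr9, Cxcr2 and Ackr3. Their 3' UTRs were 1818 to 5188 bases long, and a longer stretch holds more matches by chance. The share over all genes was not computed, so that the count describes the letters only. The sites of 4 of them that were tested are given with 10 flanking bases on each side and the seed match in capitals, from the GENCODE M21 transcripts on GRCm38. They lie at chr6:117178235-117178261 (+ strand) for Cxcl12, chr5:92323478-92323504 (- strand) for Cxcl9, chr9:123781723-123781749 (+ strand) for Ccr9 and chr1:90215588-90215614 (+ strand) for Ackr3.
Cxcl12: ctgttagggcCAATGCAtagtctcagc
Cxcl9: catagctatcCAATGCAcaacagctgt
Ccr9: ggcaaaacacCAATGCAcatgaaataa
Ackr3: aactgcccagCAATGCAgtttgttaca
The KO log2 fold change of Cxcl12, the most abundant member, was 0.06 ± 0.11 (SE) on HFD and -0.04 ± 0.12 on chow. For Cxcl9 it was 0.29 ± 0.34 and 0.50 ± 0.44, for Ccr9 0.29 ± 0.40 and 0.85 ± 0.43, and for Ackr3 -0.33 ± 0.28 and 0.90 ± 0.45. None of these 4 genes passed in either KO comparison (edgeR, Benjamini-Hochberg adjusted p between 0.846 and 1.00).

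Library totals ran between 15888436 and 29469645 estimated counts. The hepatocyte markers Alb, Apoa1, Ttr, Serpina1a, Cyp2e1 and Tat summed to at least 60639 read counts scaled to library size (CPM, by TMM) in every library, so the tissue is liver by its markers. KO HFD library 1 and WT chow library 3 stood apart from the other libraries in an earlier analysis of these data. Without both, 19 members were higher and 5 lower on HFD in KO, and 19 were higher and 4 lower in WT, against 20 and 4 in each genotype with them. miR-33 itself was not measured in the values used here, and the labelled deletion is therefore not checked by them.

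High-fat diet was accompanied by higher RNA of several inflammatory chemokines, and of some of the receptors that read them, in both genotypes. The monocyte chemoattractants Ccl2 and Ccl7, the neighbouring macrophage inflammatory protein genes Ccl3 and Ccl4, the macrophage-derived Ccl22, the neutrophil ligand Cxcl2, Cxcl14 and the monocyte receptors Ccr2, Ccr1 and Cx3cr1 had the 10 largest log2 fold changes among the tested members in each genotype. The stromal ligand Cxcl12 and the scavenger receptor Ackr4 fell in both genotypes. In bulk liver RNA, a larger number of cells of one type and more RNA in each cell cannot be told apart. In KO, 20 members were higher and 4 lower on HFD, against a background of 17.4% and 16.2% of the 16830 genes tested. In WT, likewise 20 were higher and 4 lower, against 15.2% and 14.2% of all genes (edgeR quasi-likelihood test, Benjamini-Hochberg adjusted p under 0.05). Of these, 19 were higher and 2, Cxcl12 and Ackr4, were lower in both genotypes. The share of all genes called in both genotypes was not computed.

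The filter had a part in these counts. It asked for about 0.424 CPM in at least 3 libraries, and 12 members (Ccl2, Ccl3, Ccl4, Ccl7, Ccl19, Ccl22, Cxcl2, Ccr1, Ccr7, Ccr10, Cxcr5 and Ackr3) met it through HFD libraries alone, while Cxcl13 met it through chow libraries alone. Among the 23 members that met it on each diet, 11 were higher and 4 lower on HFD in KO, and 11 were higher and 4 lower in WT. The share among all genes that met it on each diet was not computed, so these counts are a description. With no filter, 22 of the 47 members were higher in KO (12.9% of 23258 genes) and 21 in WT (10.9%). The neutrophil ligand Cxcl5 was added in both genotypes and the monocyte-attracting Ccl8 in KO. The Ccl8 call was near the threshold (adjusted p = 0.0472, edgeR), with overlapping groups and 0 to 13 counts in KO HFD libraries. Against a floor of 3 counts in each KO chow library Ccl8 was 0.967-fold, so that the floor shows no rise.

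**Figure D1:**
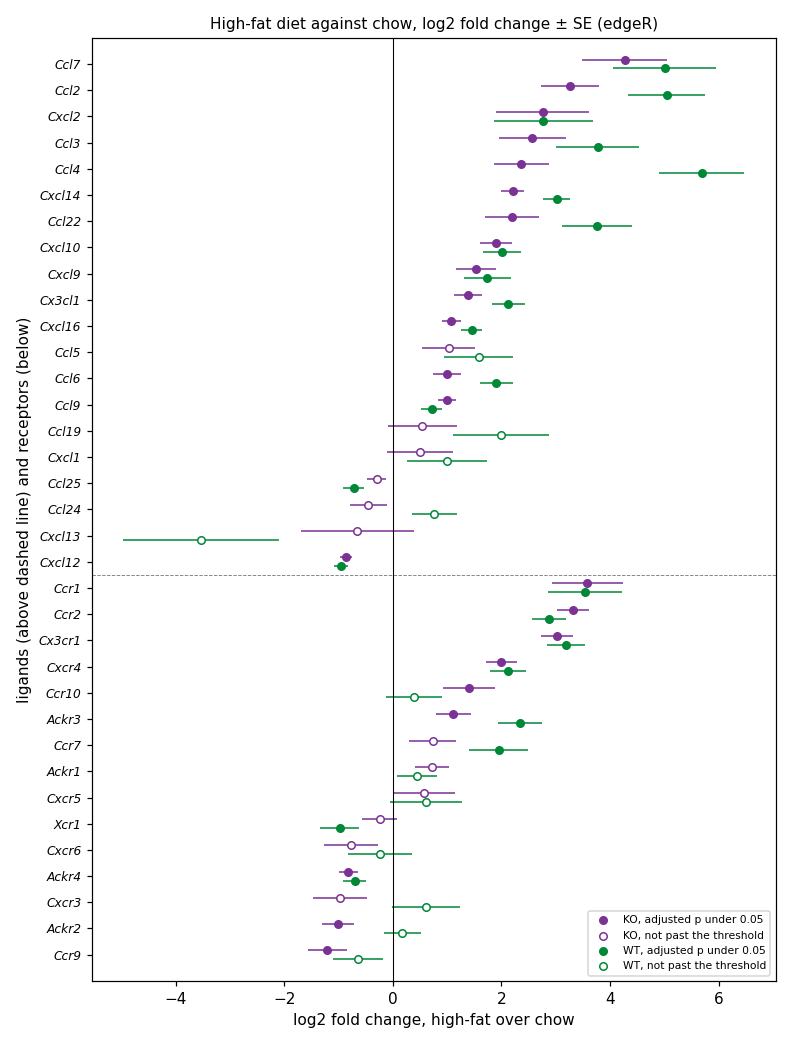
Log2 fold change of HFD over chow (x axis) for 35 of the 36 tested members, with ligands above and receptors below the dashed line. Purple points are KO and green points WT, bars are SE, and filled points passed the threshold. Among ligands Ccl4, Ccl2 and Ccl7 lie farthest to the right in WT, and Ccl7, Ccl2 and Cxcl2 in KO. Among receptors these are Ccr1, Ccr2 and Cx3cr1 in both genotypes, while Cxcl12 and Ackr4 lie left of 0 in both.

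Inflammatory CC ligands attract monocytes, macrophages, eosinophils and T cells. The group has 11 members, of which 8 were tested, and 6 were higher and 0 lower on HFD in each genotype, where 17.4% of all genes were higher in KO and 15.2% in WT. Of these 6, Ccl2, Ccl3, Ccl4 and Ccl7 met the filter through HFD libraries alone, so that the count is a description. The 10 CC ligand genes of chromosome 11 lie in 2 blocks of 5. The first, at chr11:82035571-82116799 (mm10), holds Ccl2, Ccl7, Ccl11, Ccl12 and Ccl8, and the second, at chr11:83525778-83664683, holds Ccl5, Ccl9, Ccl6, Ccl3 and Ccl4.

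Ccl2 (ENSMUSG00000035385.5, chr11:82035571-82037453), the main CCR2 ligand, had 2.03, 7.66, 3.39, 3.68 and 2.86 CPM in KO HFD livers, against 0.272, 0.388, 0.425 and 0.530 CPM in KO chow livers. It had 10.6, 2.44, 3.73 and 5.38 CPM in WT HFD livers, against 0.204, 0.0582 and 0.237 CPM in WT chow livers. Each HFD library lay above each chow library, and the spread was widest among WT HFD livers. WT HFD library 1 was the highest of these for Ccl2, as for Ccl7, Ccl3, Ccl4, Cxcl10 and Cxcl2 below. The same library was the lowest WT HFD library for Ccl6, Ccr2, Cxcl14 and Cx3cl1. The log2 fold change was 3.26 ± 0.53 in KO and 5.04 ± 0.71 in WT (adjusted p = 2.14e-04 and 8.42e-05, edgeR), which is 9.59-fold and 33-fold. Its neighbour Ccl7 (chr11:82045712-82047525), a second CCR2 ligand, had 0.468, 1.67, 1.27, 0.977 and 0.892 CPM in KO HFD livers, against 0, 0.129, 0 and 0.0442 CPM in KO chow livers. In WT HFD livers Ccl7 had 2.64, 0.626, 0.547 and 1.54 CPM, against 0, 0.116 and 0 CPM in WT chow livers. The gene was thus near the limit of detection on chow. Its log2 fold change was 4.27 ± 0.78 in KO and 5.01 ± 0.95 in WT (adjusted p = 4.57e-04 and 7.75e-04, edgeR). WT chow livers held 2 counts of Ccl7 in all, against 129 in WT HFD livers, a ratio of 36.6 with an exact interval of 9.93 to 306 that covers counting error only. Without KO chow library 2, which held 3 of the 4 KO chow counts, the KO value was 5.52. Without WT chow library 2, which held both WT chow counts, the WT value was 7.99, a fitted value that depends on the prior count since the other WT chow libraries were at 0. The WT value was 4.41 without WT HFD library 1 and 4.39 without WT chow library 1.

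The CCR1 ligand Ccl3 (chr11:83647844-83649355) had 0.468, 0.646, 0.607, 0.523 and 0.463 CPM in KO HFD livers, against 0, 0.172, 0 and 0.132 CPM in KO chow livers. In WT HFD livers it had 1.30, 1.01, 0.379 and 0.478 CPM, against 0.0941, 0 and 0.0592 CPM in WT chow livers. HFD and chow libraries did not overlap, and the log2 fold change was 2.57 ± 0.62 in KO and 3.77 ± 0.77 in WT (adjusted p = 0.00386 and 0.00127, edgeR). It was 3.23 in KO without KO chow library 2 and 4.54 in WT without WT chow library 1. Ccl4 (chr11:83662584-83664683), a macrophage inflammatory protein encoded next to Ccl3, had 0.515, 0.851, 0.729, 0.872 and 0.496 CPM in KO HFD livers, against 0.163, 0.0431, 0.283 and 0.0883 CPM in KO chow livers. Its WT HFD values were 2.10, 0.939, 0.716 and 1.01 CPM, against 0.0470, 0 and 0 CPM in WT chow livers. The groups were apart in both genotypes. The log2 fold change of Ccl4 was 2.36 ± 0.51 in KO and 5.69 ± 0.79 in WT (adjusted p = 0.00168 and 4.57e-05, edgeR). The WT value rests on 1 count in the WT chow livers, against 118 in WT HFD livers, a ratio of 67 with an exact interval of 11.8 to 2667. The corresponding ratio of Ccl3 was 15.3, with an interval of 5.06 to 75.9. Without WT chow library 1, which held that 1 count, the fitted value of Ccl4 in WT was 7.82 and depends on the prior count in the same way.

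Ccl9 and Ccl6 are ligands that act through CCR1 in mice, and both were abundant on chow already. Ccl9 (chr11:83572919-83578636) had 40.0, 33.9, 55.0, 49.5 and 41.6 CPM in KO HFD livers, against 18.8, 16.8, 31.6 and 21.6 CPM in KO chow livers. The WT HFD libraries held 37.3, 41.8, 35.2 and 42.8 CPM of Ccl9, against 20.1, 25.4 and 26.6 CPM in WT chow livers. Its rise was small but free of overlap, at a log2 fold change of 0.99 ± 0.17 in KO and 0.71 ± 0.19 in WT (adjusted p = 2.90e-04 and 0.0102, edgeR). Ccl6 rose by 1.00 ± 0.25 in KO and 1.90 ± 0.31 in WT on the log2 scale (adjusted p = 0.00607 and 2.10e-04, edgeR). Ccl5, a T-cell and monocyte attractant, had log2 fold changes of 1.03 ± 0.49 and 1.58 ± 0.64 that did not pass (adjusted p = 0.12 and 0.073, edgeR). The eosinophil attractant Ccl24 had -0.46 ± 0.34 in KO and 0.76 ± 0.41 in WT, neither past the threshold. Ccl8, Ccl11 and Ccl12, which lie beside Ccl2 and Ccl7, were under the filter with at most 13 counts in a library.

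Of the 4 lymphoid and barrier CC ligands, 3 were tested. Ccl22 rose in both genotypes, and Ccl25 fell in WT. Ccl22 (chr8:94745590-94751699), a CCR4 ligand of macrophages and dendritic cells, had 0.328, 0.442, 0.759, 0.872 and 1.16 CPM in KO HFD livers, against 0.109, 0.258, 0.212 and 0.0442 CPM in KO chow livers. It had 1.30, 0.870, 0.674 and 1.38 CPM in WT HFD livers, against 0.0470, 0.0582 and 0.118 CPM in WT chow livers. No HFD library overlapped a chow library, with log2 fold changes of 2.19 ± 0.49 in KO and 3.76 ± 0.64 in WT (adjusted p = 0.00231 and 2.99e-04, edgeR). Ccl25 (chr8:4325210-4360020), the CCR9 ligand of thymus and gut, had 3.18, 2.93, 2.88, 3.31 and 2.64 CPM in KO HFD livers, against 4.56, 4.01, 3.19 and 2.96 CPM in KO chow livers. Values in WT HFD livers were 2.60, 2.78, 2.78 and 2.60 CPM for Ccl25, against 5.08, 5.07 and 3.20 CPM in WT chow livers. The WT groups were apart and the KO groups overlapped. Ccl25 fell in WT by 0.73 ± 0.19 on the log2 scale (adjusted p = 0.00770, edgeR), while the KO value of -0.30 ± 0.17 did not pass (adjusted p = 0.17, edgeR). The test of the difference between these 2 effects gave 0.42 ± 0.25 (adjusted p = 0.83, edgeR). The row of Ccl25 overlaps that of Elavl1, and whether reads were counted by strand is not stated in the labels. The CCR7 ligand Ccl19 had log2 fold changes of 0.54 ± 0.63 in KO and 2.0 ± 0.88 in WT that did not pass (adjusted p = 0.54 and 0.098, edgeR).

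**Figure D2:**
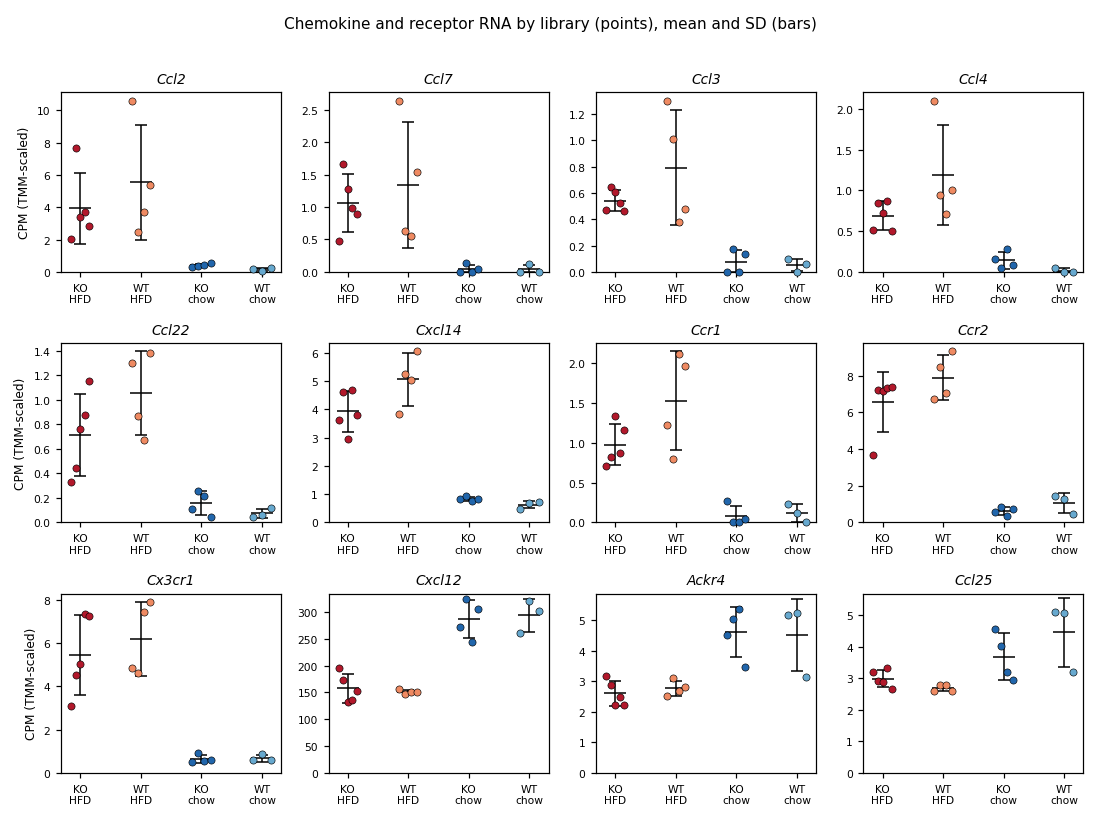
CPM per library (points) with group mean and SD (bars) for 12 members with large diet differences, in KO HFD, WT HFD, KO chow and WT chow livers. SD bars are drawn no lower than 0. Within each genotype, the HFD libraries lie above the chow libraries in the first 9 panels and below them in the panels of Cxcl12 and Ackr4.

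The neutrophil-attracting and interferon-induced CXC ligands sit in 1 region of chromosome 5. NF-kB, AP-1 and interferon response motifs are known to control genes of this kind. Promoter windows that hold a match are shown for Cxcl10, Cxcl2 and Cxcl1, and for Ccl9 and Cxcl14 from other chromosomes. The window of Cxcl9 held 1 AP-1 match and no NF-kB or interferon match, and it is not shown. The windows reach from upstream of the annotated start to shortly after it (RefSeq, GRCm38.p6), at chr5:92348840-92349139 (- strand) for Cxcl10, chr5:90903649-90903948 (+ strand) for Cxcl2, chr5:90890995-90891294 (+ strand) for Cxcl1, chr11:83578587-83578886 (- strand) for the CC ligand Ccl9 and chr13:56296502-56296801 (- strand) for Cxcl14. Capitals mark matches, on either strand, to the NF-kB motif GGGNNNTTCC, the interferon-stimulated response element GAAANNGAAA or the AP-1 motif TGANTCA. Neighbouring matches that overlap are merged in the Cxcl1 and Cxcl2 windows.
Cxcl10: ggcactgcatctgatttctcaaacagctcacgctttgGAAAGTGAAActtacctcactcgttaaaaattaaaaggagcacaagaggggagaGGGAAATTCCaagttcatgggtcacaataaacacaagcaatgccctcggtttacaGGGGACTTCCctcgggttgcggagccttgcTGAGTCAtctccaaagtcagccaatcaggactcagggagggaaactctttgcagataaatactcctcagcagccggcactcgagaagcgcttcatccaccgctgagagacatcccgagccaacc
Cxcl2: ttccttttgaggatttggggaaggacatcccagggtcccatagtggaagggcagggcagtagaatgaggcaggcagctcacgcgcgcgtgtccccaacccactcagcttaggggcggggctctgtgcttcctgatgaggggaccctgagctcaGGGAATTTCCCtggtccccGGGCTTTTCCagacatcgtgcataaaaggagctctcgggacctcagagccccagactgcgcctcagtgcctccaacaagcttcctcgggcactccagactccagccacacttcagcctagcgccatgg
Cxcl1: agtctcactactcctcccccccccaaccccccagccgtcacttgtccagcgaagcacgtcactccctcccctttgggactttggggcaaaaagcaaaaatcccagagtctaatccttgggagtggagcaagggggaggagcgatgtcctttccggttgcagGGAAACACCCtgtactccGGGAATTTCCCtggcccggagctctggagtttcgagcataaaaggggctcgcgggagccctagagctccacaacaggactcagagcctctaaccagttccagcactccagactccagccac
Ccl9: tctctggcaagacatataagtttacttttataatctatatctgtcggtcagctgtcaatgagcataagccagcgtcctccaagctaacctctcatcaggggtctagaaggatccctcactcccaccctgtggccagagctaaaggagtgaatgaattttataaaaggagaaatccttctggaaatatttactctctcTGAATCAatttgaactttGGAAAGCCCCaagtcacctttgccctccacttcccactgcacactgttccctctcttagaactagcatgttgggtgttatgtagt
Cxcl14: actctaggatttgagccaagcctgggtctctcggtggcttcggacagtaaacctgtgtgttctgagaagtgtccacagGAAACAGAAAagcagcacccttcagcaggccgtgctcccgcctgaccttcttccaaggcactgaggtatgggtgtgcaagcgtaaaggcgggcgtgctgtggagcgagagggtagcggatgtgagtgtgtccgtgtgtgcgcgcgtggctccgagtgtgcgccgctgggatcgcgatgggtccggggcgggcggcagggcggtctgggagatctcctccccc
The Cxcl10 window holds all 3 motifs. Of the 47 members, 35 had a window, 37 windows in all. The NF-kB motif was present in 6 of these members (Ccl9, Cxcl1, Cxcl2, Cxcl10, Ccr3 and Ccr6), and in 5.56% of all 32851 promoter windows. The interferon motif was present in 3 (Ccl19, Cxcl10 and Cxcl14) and in 3.44% of all windows, and the AP-1 motif in 6 (Ccl9, Ccl28, Cxcl9, Cxcl10, Ccr3 and Ccr4) and in 7.81%. A match describes the letters only.

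Both interferon-induced ligands, which attract CXCR3-bearing T and NK cells, rose on HFD. Cxcl10 (chr5:92346638-92348889) had 5.66, 8.03, 11, 8.50 and 6.59 CPM in KO HFD livers, against 1.30, 2.57, 2.61 and 2.02 CPM in KO chow livers. WT HFD livers had 13.3, 4.80, 6.49 and 7.67 CPM, against 2.56, 1.84 and 1.5 CPM in WT chow livers. The diets did not overlap, with a log2 fold change of 1.90 ± 0.30 in KO and 2.01 ± 0.35 in WT (adjusted p = 1.28e-04 and 3.67e-04, edgeR). Cxcl9 rose by 1.53 ± 0.37 in KO and 1.74 ± 0.44 in WT on the log2 scale (adjusted p = 0.00577 and 0.00843, edgeR). The row of Cxcl10 overlaps that of Art3.

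Of the CXCR2 ligands, which attract neutrophils, Cxcl2 was called and Cxcl1 was not. Cxcl2 (chr5:90903871-90905938) had 0.588, 0.842, 0.296, 0.326 and 0.259 CPM in KO HFD livers, against 0.0543, 0.129, 0.0708 and 0 CPM in KO chow livers. In WT HFD livers it had 1.56, 0.150, 0.360 and 0.502 CPM, against 0.140, 0 and 0.118 CPM in WT chow livers. The WT groups were separated by a narrow gap, and WT HFD library 1 stood highest. Cxcl2 rose by 2.76 ± 0.85 in KO and 2.77 ± 0.91 in WT on the log2 scale (adjusted p = 0.0183 and 0.0281, edgeR). The call was lost in WT without WT HFD library 1, where the value was 1.78 (adjusted p = 0.130), without any 1 of the WT chow libraries (adjusted p 0.0505 to 0.106) and in limma voom (adjusted p = 0.0997). In KO it was lost without KO chow library 4 (2.31, adjusted p = 0.0586, edgeR), and the value was 3.48 without KO chow library 2. Its neighbour Cxcl1 (chr5:90891241-90893115) had 18.6, 9.52, 12.4, 6.87 and 6.01 CPM in KO HFD livers, against 2.19, 2.80, 2.66 and 21.9 CPM in KO chow livers. Its WT HFD values were 9.07, 6.78, 8.77 and 10.7 CPM, against 4.22, 3.20 and 5.88 CPM in WT chow livers. KO chow library 4 was the highest of all 16 libraries, and the other chow libraries lay below every HFD library. With all libraries the log2 fold change was 0.50 ± 0.61 in KO and 0.99 ± 0.74 in WT (adjusted p = 0.57 and 0.34, edgeR). Without KO chow library 4, a choice made after its value was seen, Cxcl1 was higher on HFD in KO by 2.05 (adjusted p = 5.24e-04, edgeR). That library also held the most neutrophil marker RNA of the KO chow livers, 5.52 CPM summed over Csf3r, Mpo, Retnlg, S100a8 and S100a9, against 2.55 to 3.46 in the others, and its part in the Cxcl1 value was not tested. Cxcl5 was at 0 in all 7 chow libraries and had at most 8.39 counts in an HFD library. Against a floor of 3 counts in each chow library it was at least 1.51-fold higher on HFD in KO and at least 1.37-fold higher in WT.

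**Figure D3:**
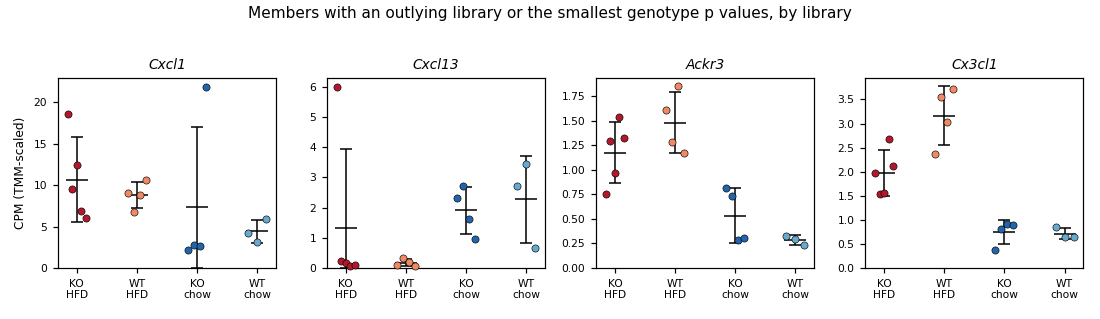
CPM per library (points) with group mean and SD (bars, drawn no lower than 0) of Cxcl1, Cxcl13, Ackr3 and Cx3cl1 in KO HFD, WT HFD, KO chow and WT chow livers. KO chow library 4 lies apart for Cxcl1 at 21.9 CPM and KO HFD library 1 for Cxcl13 at 5.99 CPM. For Ackr3 the KO chow and WT chow livers overlap.

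The homeostatic CXC ligands moved in different directions. Cxcl12 (chr6:117168535-117181367), the CXCR4 ligand made by stromal and endothelial cells, had 196, 173, 133, 135 and 153 CPM in KO HFD livers, against 273, 323, 243 and 306 CPM in KO chow livers. In WT HFD livers it had 156, 147, 151 and 150.4 CPM, against 260.2, 320.1 and 301 CPM in WT chow livers. All HFD libraries lay below all chow libraries. Cxcl12 fell by 0.86 ± 0.11 in KO and by 0.96 ± 0.12 in WT on the log2 scale (adjusted p = 1.38e-05 and 2.32e-05, edgeR). Cxcl14 (chr13:56288643-56296551), a ligand of epithelia and other tissues, had 3.64, 4.63, 2.94, 4.68 and 3.80 CPM in KO HFD livers, against 0.820, 0.946, 0.774 and 0.839 CPM in KO chow livers. It had 3.85, 5.27, 5.05 and 6.08 CPM in WT HFD livers, against 0.477, 0.699 and 0.71 CPM in WT chow livers. The 4 groups were tight and the diets far apart. It rose by 2.20 ± 0.21 in KO and 3.02 ± 0.25 in WT on the log2 scale (adjusted p = 6.77e-07 and 3.35e-07, edgeR), the smallest adjusted p of any member in WT.

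Cxcl13 (chr5:95956951-95961068), the CXCR5 ligand that attracts B cells, was low in 8 of the 9 HFD livers. It had 5.99, 0.238, 0.152, 0.0698 and 0.0991 CPM in KO HFD livers, against 2.34, 2.71, 1.63 and 0.972 CPM in KO chow livers. The WT HFD libraries held 0.115, 0.348, 0.211 and 0.0531 CPM, against 2.73, 3.44 and 0.651 CPM in WT chow livers. The WT diets did not overlap, and in KO the overlap came from KO HFD library 1. The log2 fold change was -0.66 ± 1.05 in KO and -3.54 ± 1.43 in WT, and neither passed (adjusted p = 0.67 and 0.082, edgeR). Without KO HFD library 1, left out after its value was seen, the KO value was -3.71 (adjusted p = 7.33e-05, edgeR). The same library held 19.3 CPM of B and plasma cell marker RNA (Cd79a, Cd79b, Ms4a1 and Jchain), against 2.80 to 5.09 in the other KO HFD livers, and its part in the Cxcl13 value was not tested.

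Both membrane-bound ligands rose. Cxcl16, which also serves as a scavenger receptor, rose by 1.08 ± 0.17 in KO and 1.45 ± 0.20 in WT on the log2 scale (adjusted p = 1.08e-04 and 3.56e-05, edgeR). Its libraries ran from 10.2 to 13.9 CPM in KO HFD livers, against 5.25 to 6.33 in KO chow livers, and from 10.5 to 19.9 CPM in WT HFD livers, against 4.52 to 5.64 in WT chow livers. Cx3cl1 (chr8:94772009-94782427), fractalkine, which is tethered to epithelial and endothelial cells, had 1.97, 1.53, 1.55, 2.69 and 2.12 CPM in KO HFD livers, against 0.380, 0.818, 0.921 and 0.883 CPM in KO chow livers. Values in WT HFD livers were 2.37, 3.55, 3.03 and 3.72 CPM for Cx3cl1, against 0.847, 0.641 and 0.651 CPM in WT chow livers. The diets were apart in each genotype, with log2 fold changes of 1.38 ± 0.26 in KO and 2.13 ± 0.30 in WT (adjusted p = 5.93e-04 and 5.61e-05, edgeR). The lymphocyte ligand Xcl1 was under the filter with 0 to 6 counts in a library.

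Among the CC receptors, Ccr1 and Ccr2 rose most. Of 9 members 6 were tested. In KO 4 were higher and 1 lower on HFD, where 17.4% of all genes were higher and 16.2% lower. In WT 4 were higher and 0 lower, where 15.2% of all genes were higher and 14.2% lower. Ccr1, Ccr7 and Ccr10 met the filter through HFD libraries alone. A run of 6 receptor genes lies at chr9:123678439-124113557 and comprises Ccr9, Cxcr6, Xcr1, Ccr1, Ccr3 and Ccr2. Ccr2 (chr9:124101950-124113557), the receptor that brings monocytes out of marrow and blood, had 3.65, 7.24, 7.14, 7.32 and 7.40 CPM in KO HFD livers, against 0.595, 0.853, 0.350 and 0.717 CPM in KO chow livers. It had 6.75, 8.45, 7.05 and 9.33 CPM in WT HFD livers, against 1.42, 1.29 and 0.450 CPM in WT chow livers. KO HFD library 1 was the lowest HFD library and still exceeded each chow library. The log2 fold change was 3.32 ± 0.29 in KO and 2.87 ± 0.32 in WT (adjusted p = 4.26e-07 and 4.41e-06, edgeR). Ccr1 (chr9:123962124-123968692), the receptor of Ccl3, Ccl6 and Ccl9, had 0.702, 0.816, 1.34, 0.872 and 1.16 CPM in KO HFD livers, against 0.272, 0, 0 and 0.0442 CPM in KO chow livers. In WT HFD livers it had 1.22, 0.800, 2.11 and 1.97 CPM, against 0.235, 0.116 and 0 CPM in WT chow livers. The diets did not overlap, and the log2 fold change was 3.58 ± 0.66 in KO and 3.54 ± 0.69 in WT (adjusted p = 4.66e-04 and 8.85e-04, edgeR). Without KO chow library 1 the KO value of Ccr1 was 5.50, since that library held 5 of the 6 chow counts in KO, and without WT chow library 1 the WT value was 4.56.

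Ccr9 (chr9:123678439-123784330), the gut-homing receptor of Ccl25, had 0.377, 0.340, 0.265, 0.784 and 0.331 CPM in KO HFD livers, against 1.41, 0.694, 0.850 and 0.948 CPM in KO chow livers. Its WT HFD values were 0.208, 0.422, 0.346 and 0.425 CPM, against 0.735, 0.525 and 0.318 CPM in WT chow livers. Both pairs of groups overlapped, in KO through library 4 on HFD. Ccr9 fell in KO by 1.21 ± 0.36 on the log2 scale (adjusted p = 0.0159, edgeR), while the WT value was -0.64 ± 0.46 (adjusted p = 0.31), and the difference between them did not pass (adjusted p = 0.91, edgeR). The KO call was lost without KO chow library 1 (-0.97, adjusted p = 0.0751, edgeR). The row of Ccr9 overlaps that of Lztfl1 and 3 gene models. Ccr7, which guides dendritic cells to lymph nodes, rose in WT (1.95 ± 0.55, edgeR adjusted p = 0.0119) and had 0.74 ± 0.43 in KO (adjusted p = 0.20). Ccr10, a receptor of mucosal lymphocytes, rose in KO (1.41 ± 0.48, edgeR adjusted p = 0.0308) and had 0.39 ± 0.52 in WT (adjusted p = 0.61), with overlapping groups. Its row overlaps that of Cntnap1.

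Of the 8 CXC, CX3C and XC receptors, 6 were tested, and Cx3cr1 and Cxcr4 rose in both genotypes. Cx3cr1 (chr9:119901616-120069879), the fractalkine receptor of monocytes and tissue macrophages, had 3.09, 4.51, 5.03, 7.34 and 7.26 CPM in KO HFD livers, against 0.528, 0.911, 0.566 and 0.606 CPM in KO chow livers. It had 4.84, 4.61, 7.42 and 7.91 CPM in WT HFD livers, against 0.586, 0.858 and 0.592 CPM in WT chow livers. HFD and chow livers were far apart, at a log2 fold change of 3.02 ± 0.30 in KO and 3.19 ± 0.35 in WT (adjusted p = 1.28e-06 and 4.24e-06, edgeR). Its annotated row overlaps 6 others, Csrnp1, Gorasp1, Wdr48 and Xirp1 among them. Cxcr4, the CXCL12 receptor of most white blood cells, rose by 1.99 ± 0.28 in KO and 2.12 ± 0.33 in WT on the log2 scale (adjusted p = 4.30e-05 and 1.16e-04, edgeR). Xcr1 (chr9:123852315-123862029), a marker of cross-presenting dendritic cells, had 0.749, 0.476, 0.637, 0.279 and 0.529 CPM in KO HFD livers, against 0.761, 0.517, 0.637 and 0.618 CPM in KO chow livers. The WT HFD libraries held 0.573, 0.661, 0.421 and 0.266 CPM of Xcr1, against 0.988, 1.11 and 0.828 CPM in WT chow livers. The WT groups were apart and the KO groups overlapped. Xcr1 fell in WT by 0.98 ± 0.35 on the log2 scale (adjusted p = 0.0438, edgeR), a call near the threshold that was lost with no filter (adjusted p = 0.0675), in DESeq2 (0.0508), with only the WT groups in the fit (0.0753) and without any WT chow library (0.0583 to 0.133). The receptors Cxcr3, Cxcr5 and Cxcr6 of T and B cells passed in neither genotype.

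The 4 atypical receptors did not move together. Ackr4 (chr9:104084157-104126933), which scavenges CCL19, CCL21 and CCL25, had 3.18, 2.88, 2.24, 2.49 and 2.23 CPM in KO HFD livers, against 4.53, 5.05, 5.37 and 3.48 CPM in KO chow livers. The WT HFD livers had 2.51, 3.10, 2.67 and 2.82 CPM, against 5.17, 5.23 and 3.15 CPM in WT chow livers. The diets did not overlap within either genotype, though WT chow library 3 came close to the WT HFD livers and lay below KO HFD library 1. Ackr4 fell by 0.82 ± 0.18 in KO and by 0.71 ± 0.21 in WT on the log2 scale (adjusted p = 0.00193 and 0.0148, edgeR). The WT call was lost without WT chow library 1 or 2 (adjusted p = 0.0716 and 0.0772, edgeR), and the row overlaps that of Acad11. Ackr3 (chr1:90203980-90216751), which scavenges CXCL12, had 0.749, 1.29, 0.971, 1.53 and 1.32 CPM in KO HFD livers, against 0.815, 0.732, 0.283 and 0.309 CPM in KO chow livers. Values in WT HFD livers were 1.61, 1.29, 1.85 and 1.17 CPM for Ackr3, against 0.329, 0.291 and 0.237 CPM in WT chow livers. The KO groups overlapped at 1 library and the WT groups did not. The log2 fold change of Ackr3 was 1.11 ± 0.32 in KO and 2.34 ± 0.41 in WT (adjusted p = 0.0121 and 3.47e-04, edgeR).

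Ackr2 (chr9:121898355-121911074), which scavenges inflammatory CC ligands, had 1.58, 1.90, 2.28, 1.77 and 0.780 CPM in KO HFD livers, against 2.44, 2.43, 3.65 and 4.90 CPM in KO chow livers. It had 2.38, 3.40, 1.42 and 2.47 CPM in WT HFD livers, against 2.23, 2.49 and 1.78 CPM in WT chow livers. The KO diets were apart and the WT diets overlapped. Ackr2 fell in KO by 1.01 ± 0.29 on the log2 scale (adjusted p = 0.0120, edgeR), and the WT value was 0.17 ± 0.34 (adjusted p = 0.75). The KO call was lost without KO chow library 4 (-0.76, adjusted p = 0.0671, edgeR). Ackr1 (chr1:173331886-173333750), the Duffy antigen of venous endothelium and red cells, had 1.17, 0.869, 1.76, 1.12 and 0.670 CPM in KO HFD livers, against 0.652, 0.646, 0.708 and 0.707 CPM in KO chow livers. WT HFD livers had 1.18, 0.886, 0.926 and 0.850 CPM of Ackr1, against 0.325, 0.990 and 0.837 CPM in WT chow livers. Both pairs of groups overlapped, and neither log2 fold change passed (0.72 ± 0.32 in KO and 0.45 ± 0.37 in WT, edgeR adjusted p = 0.088 and 0.39).

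Levels of different genes were compared as CPM per kilobase of merged exons. On this scale Cxcl12 was the highest ligand in every group, with means of 19.3 ± 3.27 (SD) in KO HFD, 18.5 ± 0.481 in WT HFD, 35 ± 4.37 in KO chow and 35.9 ± 3.75 in WT chow livers. Ccl9 was second in each group, with 14.4 ± 2.73 in KO HFD, 12.9 ± 1.19 in WT HFD, 7.30 ± 2.15 in KO chow and 7.89 ± 1.15 in WT chow livers. Cxcl12 thus made up 26.1% of the summed ligand level in KO HFD livers, against 58.5% in KO chow livers, and 25.1% in WT HFD livers, against 63.1% in WT chow livers. The order of the receptors differed between the diets. On HFD Cxcr4 was the highest receptor, at 1.30 in KO and 1.47 in WT, and Cx3cr1, at 1.21 in KO and 1.38 in WT, lay within its SD. On WT chow the first 3 were the atypical receptors Ackr4, Ackr2 and Ackr1, at 0.839 ± 0.220, 0.692 ± 0.115 and 0.511 ± 0.248. The mean of Ackr2 lay within the SD of Ackr4 and within that of Ackr1. In KO chow livers Ackr2 came first at 1.07 ± 0.376, then Ackr4 at 0.857 ± 0.154.

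**Figure D4:**
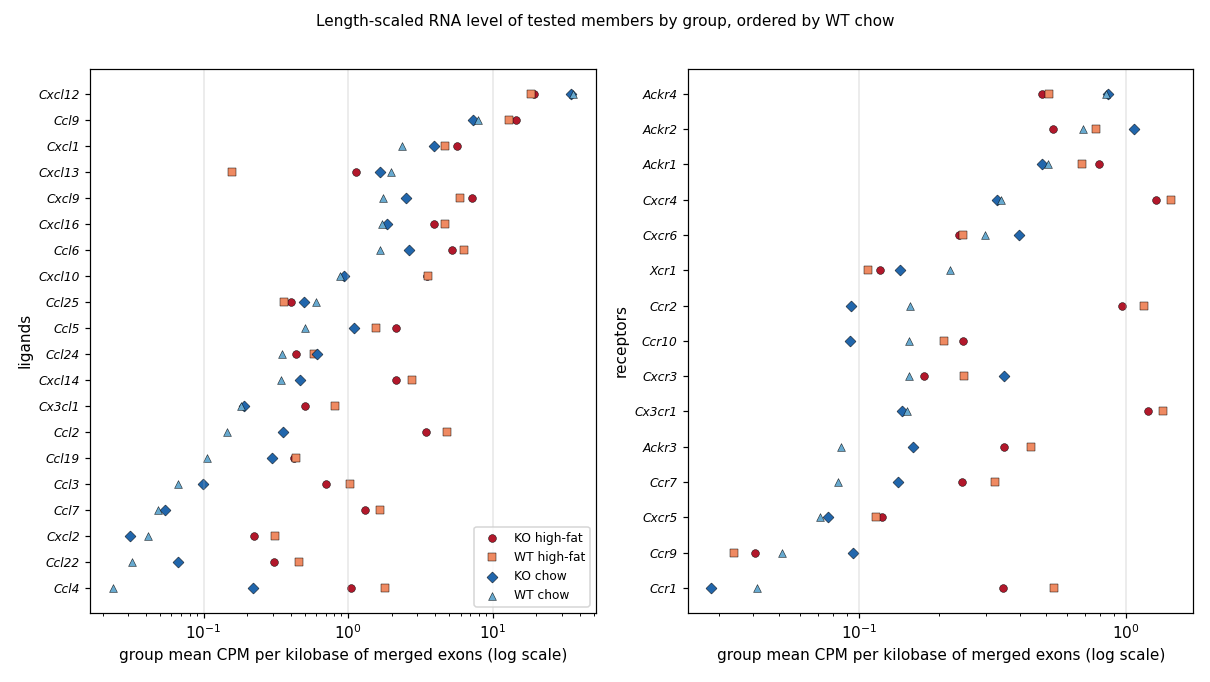
Group mean level in CPM per kilobase of merged exons (log scale, x axis) for tested ligands (left) and receptors (right), ordered by WT chow. Circles are KO HFD, squares WT HFD, diamonds KO chow and triangles WT chow livers. Cxcl12 leads the ligands in all 4 groups, and Cxcr4 leads the receptors on HFD.

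The summed level of all ligands was 65.5 to 80.4 in KO HFD livers, against 54.6 to 68.6 in KO chow livers, on the per-kilobase scale, and 66.6 to 81.1 in WT HFD livers, against 55.1 to 59.0 in WT chow livers. The means differed 1.24-fold in KO, where the groups overlapped, and 1.30-fold in WT (two-sided exact permutation p = 0.0476 of 126 arrangements and 0.0571 of 35). Without Cxcl12, which fell, the sum was 46.8 to 64.2 in KO HFD livers, against 20.5 to 31.2 in KO chow livers. It was 48.1 to 62.7 in WT HFD livers, against 19.8 to 23.3 in WT chow livers. Neither pair of groups overlapped for this sum, and the means differed 2.22-fold in KO and 2.66-fold in WT. Since Cxcl12 was left out because it fell in these data, no p-value is given for this sum. The smallest p that 4 against 3 libraries allow is 0.0571, so WT could not reach the threshold. Receptors summed to 7.79 to 9.70 in KO HFD livers, against 5.19 to 5.66 in KO chow livers, and to 9.32 to 11.3 in WT HFD livers, against 3.73 to 5.23 in WT chow livers. The means differed 1.60-fold in KO and 2.24-fold in WT (exact permutation p = 0.0159 and 0.0571). These sums hold the same genes as the counts above and are a description of them.

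Ligands and receptors were next read in 18 known pairs. Single genes were called higher on HFD at a rate of 17.4% in KO and 15.2% in WT. No such share was computed for pairs, so that the counts of pairs are a description. Both partners were higher on HFD in 4 pairs in each genotype, which were Ccl2 with Ccr2, Ccl7 with Ccr2, Ccl3 with Ccr1 and Cx3cl1 with Cx3cr1. In the first 3 of these at least 1 partner met the filter through HFD libraries alone. The ligand and not the receptor was called higher in 5 pairs in each genotype, and in 2 of these, Ccl22 with Ccr4 and Cxcl2 with Cxcr2, the receptor was not tested. The receptor and not the ligand was called higher in 3 pairs in each genotype, and in KO 1 of these, Ccl28 with Ccr10, had a ligand that was not tested. Cxcl12 fell while both of its receptors, Cxcr4 and Ackr3, rose. The CXCR3 ligands Cxcl9 and Cxcl10 rose while Cxcr3 did not pass, with log2 fold changes of -0.98 ± 0.49 in KO and 0.61 ± 0.63 in WT. Cxcl16 rose while its receptor Cxcr6 had -0.78 ± 0.49 in KO and -0.23 ± 0.59 in WT. Pairs share members, Ccr2 among them, so that they are not independent of each other.

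Genes around the pathway were counted from fixed lists. Over all genes tested, 17.4% were higher and 16.2% lower on HFD in KO, and 15.2% were higher and 14.2% lower in WT. Of 7 chemokines and receptors outside the naming rule, 2 were higher on HFD in KO and 5 in WT. Pf4, a platelet chemokine, rose by 2.01 ± 0.37 in KO and 2.10 ± 0.42 in WT on the log2 scale, and Rarres2, the liver-made chemoattractant chemerin, by 0.54 ± 0.10 and 0.41 ± 0.11. Ppbp, a platelet chemokine, and Ccrl2, a receptor that holds chemerin, rose in WT (1.86 ± 0.43 and 1.37 ± 0.33) and did not pass in KO (0.80 ± 0.36 and 0.17 ± 0.26). Of 23 signalling genes downstream of the receptors, 10 were higher and 1 lower in KO, against 15 higher and 0 lower in WT. Among them Rgs2, a brake on G protein signalling, rose by 1.22 ± 0.20 in KO and 2.20 ± 0.24 in WT, and Rac2 and Elmo1, which drive the cytoskeleton of migrating white blood cells, rose by 0.93 ± 0.20 and 1.00 ± 0.22 in KO and by 1.31 ± 0.24 and 1.45 ± 0.26 in WT.

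Of 9 proteases and heparan sulphate carriers that act on chemokines, 3 rose and 3 fell in each genotype. Over all genes 17.4% rose and 16.2% fell in KO, and 15.2% rose and 14.2% fell in WT. Mmp12, the macrophage elastase, had 14.5 ± 1.71 CPM (SD) in KO HFD livers, against 0.383 ± 0.152 in KO chow livers, and 16.3 ± 2.45 CPM in WT HFD livers, against 0.254 ± 0.119 in WT chow livers. Its log2 fold change was 5.19 ± 0.21 in KO and 5.98 ± 0.27 in WT (adjusted p = 4.27e-11 and 1.57e-10, edgeR), larger than the fitted value of any of the 36 tested members. Mmp2, a matrix protease that trims CXCL12, rose by 1.04 ± 0.22 in KO and 1.93 ± 0.26 in WT. The syndecans Sdc1 and Sdc2, cell-surface proteins whose heparan sulphate binds chemokines, fell by 0.59 ± 0.10 and 0.39 ± 0.09 in KO and by 0.73 ± 0.11 and 0.52 ± 0.10 in WT. Of 9 NF-kB and interferon regulators, 3 were higher and 1 lower in KO and 2 were higher in WT, against 17.4% higher and 16.2% lower of all genes in KO and 15.2% higher in WT, so that these counts do not set the list apart. Nfkb2, a subunit of NF-kB, rose in both (0.84 ± 0.21 in KO and 1.04 ± 0.24 in WT), and the inhibitor Nfkbia fell in KO by 0.32 ± 0.10. Relb, another subunit, rose in WT (1.57 ± 0.38) and did not pass in KO (0.70 ± 0.32). Irf1 and Nfkb1 rose in KO (0.35 ± 0.12 and 0.60 ± 0.22).

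Markers of some of the cells that carry these receptors moved with the diet too. Over all genes tested, 17.4% were higher and 16.2% lower on HFD in KO, and 15.2% were higher and 14.2% lower in WT. All 5 monocyte markers (Ly6c2, Plac8, Chil3, F13a1 and Ms4a6c) were higher on HFD in both genotypes, and they summed to 15.9 to 20.7 CPM in KO HFD livers, against 4.32 to 6.34 in KO chow livers. In WT HFD livers the sum was 18.3 to 24.9 CPM, against 3.58 to 6.44 in WT chow livers. Of 10 Kupffer cell and macrophage markers, 3 were higher in KO and 7 in WT, and their sum was 283 to 556 CPM in KO HFD livers, against 248 to 288 in KO chow livers, and 273 to 582 CPM in WT HFD livers, against 123 to 265 in WT chow livers. The resident Kupffer cell markers Clec4f and Timd4 passed in neither genotype. Of 5 neutrophil markers with a row 3 were tested, and 0 were higher in KO and 3 in WT. Of 5 dendritic cell markers 2 were higher in each. T and NK cell markers were higher in 0 of 8 in KO and 1 of 8 in WT, and no B or plasma cell marker of 4 was higher in either. Of 6 hepatocyte markers 4 fell in each genotype. Of 6 stellate cell and fibroblast markers, 4 were higher in KO and 5 in WT, and 0 were lower in either. Of 7 sinusoidal endothelium markers, 0 were higher and 3 lower in KO, while 2 were higher and 0 lower in WT. Of 4 tested cholangiocyte markers 1 was higher in each genotype. None of these lists had a defining marker at 0 in every chow library, and the part of cell numbers in the chemokine results was not tested.

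KO and WT livers were then compared on each diet, which asks whether loss of miR-33 in the liver alters these genes. No member passed over all genes on either diet, nor did any in the test of the difference between diets. On HFD 1 gene of 16830 passed (0.00594%), and no member was among the genes called by edgeR, DESeq2 or limma voom. On the level of unadjusted p under 0.05, 0 members were higher and 3 lower in KO on HFD, against 1.63% and 2.18% of all genes. These were Cx3cl1, Ccl4 and Cxcl14. Of the 36 tested members 24 lay below 0, with a median log2 fold change of -0.21, against 0.00 over all genes.

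Fractalkine, Cx3cl1, had 1.97, 1.53, 1.55, 2.69 and 2.12 CPM in KO HFD livers, against 2.37, 3.55, 3.03 and 3.72 CPM in WT HFD livers. The groups overlapped at 1 library each, and the log2 fold change was -0.68 ± 0.22 (adjusted p = 1.00, edgeR). Ccl4 had 0.515 to 0.872 CPM in KO HFD livers, against 0.716 to 2.10 CPM in WT HFD livers, a log2 fold change of -0.78 ± 0.36 (adjusted p = 1.00, edgeR). For Cxcl14 the range was 2.94 to 4.68 CPM in KO HFD livers, against 3.85 to 6.08 CPM in WT HFD livers, a log2 fold change of -0.36 ± 0.17 (adjusted p = 1.00, edgeR). Neutrophil markers lay in the same direction, with a sum of 4.19 to 6.65 CPM in KO HFD livers, against 4.76 to 11.2 CPM in WT HFD livers. Of 7 sinusoidal endothelium markers 5 lay below 0, 4 of them with unadjusted p under 0.05, and their sum was 149.6 to 206 CPM in KO HFD livers, against 174 to 233 CPM in WT HFD livers. Macrophage (8 of 10), monocyte (4 of 5) and dendritic cell markers (4 of 5) lay mostly below 0 as well. So did stellate cell and fibroblast markers (6 of 6) and tested cholangiocyte markers (4 of 4). B and plasma cell (4 of 4), T and NK cell (5 of 8) and hepatocyte markers (4 of 6) lay mostly above 0. The part of any list in these values was not tested.

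On chow, 1 gene of 16830 passed (0.00594%) and it was no member. DESeq2 and limma voom called no member either. With unadjusted p under 0.05, 2 members, Ccl4 among them, were higher and 0 lower in KO, against 3.24% and 2.70% of all genes. Of the tested members 24 lay above 0, with a median of 0.43, against 0.00 over all genes. With no filter, 26 of the 47 members lay above 0 and 20 below, with a median of 0.09. Ccl4 had 0.163, 0.0431, 0.283 and 0.0883 CPM in KO chow livers, against 0.0470, 0 and 0 CPM in WT chow livers, which is 10 counts against 1. Its log2 fold change was 2.55 ± 1.09 (adjusted p = 0.822, edgeR). Ackr3 had 0.815, 0.732, 0.283 and 0.309 CPM in KO chow livers, against 0.329, 0.291 and 0.237 CPM in WT chow livers, with overlap and a log2 fold change of 0.90 ± 0.45 (adjusted p = 0.846, edgeR). All 10 Kupffer cell and macrophage markers lay above 0 in this comparison, with a sum of 248 to 288 CPM in KO chow livers, against 123 to 265 CPM in WT chow livers. All 7 sinusoidal endothelium markers lay above 0 too, with a sum of 204 to 245 CPM in KO chow livers, against 155 to 188 CPM in WT chow livers. Monocyte (4 of 5), tested neutrophil (3 of 3), B and plasma cell (4 of 4) and stellate cell markers (6 of 6) lay mostly above 0 as well. T and NK cell (5 of 8 above 0) and dendritic cell markers (3 of 5) were mixed, and hepatocyte markers were split evenly. Of 4 tested cholangiocyte markers 3 lay below 0. None of these markers passed, and their part in the values of the members was not tested.

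**Figure D5:**
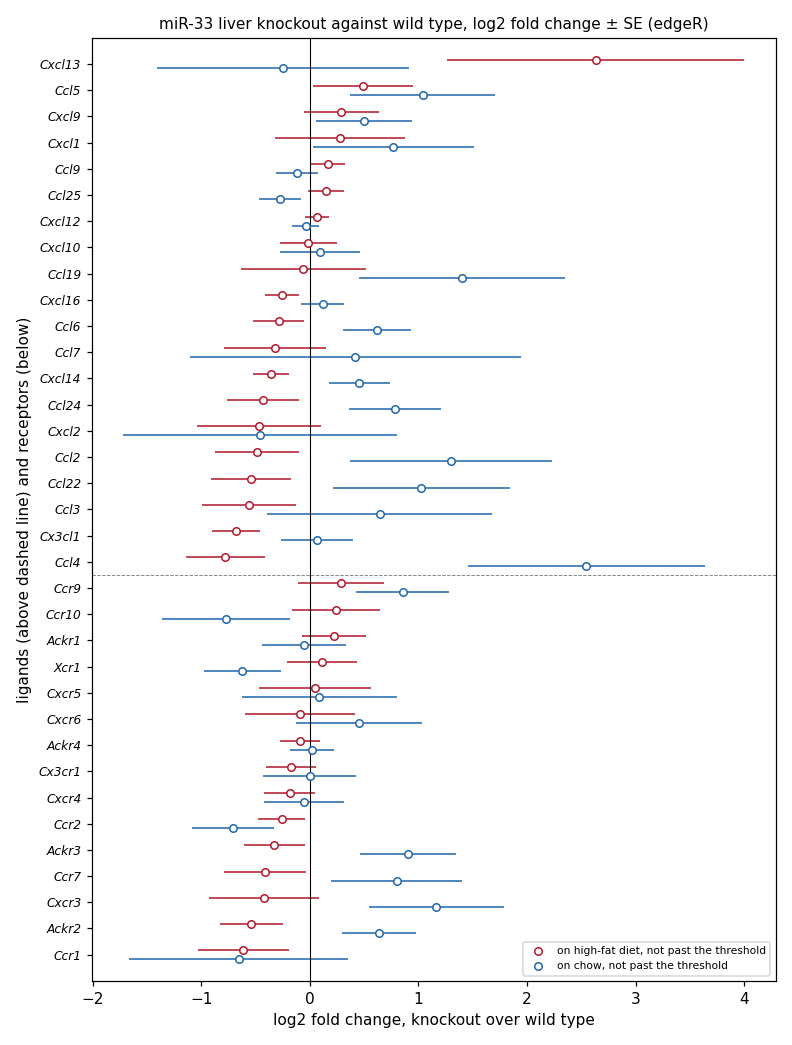
Log2 fold change of KO over WT (x axis) for 35 of the 36 tested members, on HFD (red) and on chow (blue), with SE as bars and ligands above the dashed line. Open points mark that none passed the threshold. Most red points lie left of 0 and most blue points right of 0, with the widest bars for the ligands Ccl7, Cxcl13 and Cxcl2.

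The difference of the KO effects between the diets, which is also the difference of the diet effects between the genotypes, was called for 0% of all genes by edgeR. DESeq2 called 2 genes, and no member. With unadjusted p under 0.05, 0 members were higher and 7 lower (among them Ccl4, Ackr2, Cxcl14, Ackr3, Ccl6 and Ccl24), against 2.75% and 3.84% of all genes. The difference was -3.33 ± 1.14 for Ccl4 and -1.18 ± 0.45 for Ackr2 on the log2 scale (adjusted p = 0.664 and 0.691, edgeR). In 27 of 36 members it lay below 0, with a median of -0.52, against 0.00 over all genes. With no filter it lay below 0 in 30 of the 47 members, with a median of -0.16. Larger rises in WT, as those of Ccl2 and Ccl4 given above, are therefore not shown to differ between the genotypes. Most marker lists lay in the same direction. Below 0 were 9 of 10 macrophage markers, all 7 sinusoidal endothelium markers (median -0.89) and all 3 tested neutrophil markers (median -2.45). So were all 5 monocyte markers, all 6 stellate cell and fibroblast markers and 3 of 4 tested cholangiocyte markers. T and NK cell (5 of 8 below 0) and dendritic cell markers (3 of 5) were mixed. B and plasma cell markers were split, with 2 above 0 and 2 below, and 4 of 6 hepatocyte markers lay above 0. The part of these lists was not tested. Medians over the tested members include those that met the filter through HFD libraries alone.

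The 11 members under the filter are accounted for by their counts, which did not exceed 26 in any library. The neutrophil receptor Cxcr2 was highest, with 26 counts in WT HFD library 1. Its relative Cxcr1 had 1 to 6 counts, and the lymphocyte receptors Ccr4 and Ccr6 had 0 to 4 and 0 to 9.60. The eosinophil receptor Ccr3 had 2 to 10 counts in HFD libraries, against 0 to 2 in chow libraries. Among ligands the mucosal Ccl28 had 0 to 11 counts. With no filter, Cxcl5 and Ccl8 were the only 2 of these 11 members that passed in a diet comparison, and none passed in a genotype comparison.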

How the data were processed

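Liver RNA of 16 libraries was freed of ribosomal RNA. Trimmed reads went through TopHat2 for alignment and Cuffdiff for quantification, per the labels' protocols. Per the submitters' processing notes the genome was mm10, and no source used here gives tool versions. The authors deposited 1 table of estimated counts per gene and library. Although FPKM stands in the table's name, the values carry no scaling to library size or gene length. How these estimated counts were made and whether they respect strand are not stated in the labels. They were rounded to whole numbers here.

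Genes were kept by filterByExpr of edgeR 4.0.16 on the 4 groups, with a count minimum of 10, which left 16830. Libraries were scaled by TMM. One robust quasi-likelihood fit with 4 group means took in all libraries and left 12 residual degrees of freedom. All tests used both sides. Benjamini-Hochberg adjustment covered all genes tested, and the threshold was 0.05. The SE is the absolute log2 fold change over the square root of F. The scripts were tested on simulated counts. The alternatives were DESeq2 size factors, no filter, a filter of 1 CPM in 3 libraries, the DESeq2 1.42.0 Wald test, limma 3.58.1 voom, a fit of the compared groups alone, and leaving out libraries. Intervals and floors cover counting error only. Summed levels were compared by exact permutation tests.

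The members, gene lists and tests were chosen with earlier results of these data known. Values by library are given for the 10 called members with the largest rise and the 5 with the largest fall on HFD in each genotype, for the 3 with the smallest p in each genotype comparison, and for the 3 ligands and 3 receptors with the highest level per length in WT chow livers. The values of 1 tested member and 1 marker gene are not reported here, though counts, medians and sums over the members include that member. Cxcl10 and Cxcl13, outside that rule, were added after their values were seen. From each pathway list, up to 4 called genes with the smallest p are named in each genotype. Gene limits come from the table, whose end column lay 1 base past GENCODE M21 and was shifted, after which 46 of 47 members had the annotated limits. Rows of 11 members overlap another gene's row.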

Additional observations from a re-analysis of the deposited data

Results flagged for a closer look

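In groups of 4 or 5 libraries, 1 library stood far from the others, by Dixon's criterion at the 95% level, in 6 of 108 sets of member and group. Chance flags about 1 in 20 such sets, so that 6 is near that rate. Cxcl13 had 5.99 CPM in KO HFD library 1, against 0.0698 to 0.238 in the other KO HFD livers. The same library was low for Ccr2, with 3.65 CPM against 7.14 to 7.40 in the others. Cxcl1 had 21.9 CPM in KO chow library 4, against 2.19 to 2.80 in the other KO chow livers. Ccl5 had 1.70 CPM in KO chow library 3, against 0.751 to 0.907, and Ccr1 had 0.272 CPM in KO chow library 1, against 0 to 0.0442. Ccr9 had 0.784 CPM in KO HFD library 4, against 0.265 to 0.377 in the other KO HFD livers.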

How the results depend on the processing

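Counts of members higher on HFD ran from 17 to 22 in KO and from 17 to 21 in WT over all settings. Counts of members lower ran from 3 to 5 in KO, and in WT from 2 to 5 when 1 library was left out, with 2 without WT chow library 1 and 2 without WT chow library 2. No setting called a member in either genotype comparison or in their difference. Of 847 alternative values of the named members, 817 kept their side of the threshold and their sign, 25 lost a call and 2 gained one (Cxcl13 and Cxcl1 on HFD in KO, as given above). The lost calls were those of Xcr1, Cxcl2 and Ackr4 in WT and of Cxcl2, Ccr9 and Ackr2 in KO. With 1 library left out after its value was seen, 3 genotype values changed sign. Cxcl13 on HFD was -0.44 without KO HFD library 1 and 2.63 with it, Cxcl1 on chow was -0.79 without KO chow library 4 and 0.77 with it, and Ccr9 on HFD was -0.056 without KO HFD library 4 and 0.29 with it. None of these 3 passed with or without that library, and the cause was not tested. No paired analysis was possible because the labels give no replicate numbers shared between groups. Members near 0 on chow, such as Ccl7, Ccl4, Ccl3 and Ccr1, rest on a few counts there, which limits the precision of their fold changes.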
